A study of Mus musculus with 4 samples.

Results

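The 44 genes described here encode contractile, calcium handling and energy supply proteins of skeletal muscle, out of 22489 gene symbols in 4 mouse tumour libraries. They were chosen from these same libraries, with the levels of muscle genes in view, so their levels and ratios are given as a description and were not tested. Each was found by its symbol, with 1 row per symbol. Of the 44 genes, 15 are known mainly from fast fibres, 8 mainly from slow fibres, and the other 21 are shared between fibre types or were not assigned.

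The tumours came from CT26, a mouse colon carcinoma cell line, in a BALB/c strain background. The groups were tumours of IL-34-deficient CT26 cells without treatment, the same with an anti-PD-1 monoclonal antibody, tumours of IL-34-overexpressing CT26 cells without treatment, and the same with the antibody. IL-34 is a cytokine of the CSF-1 receptor, while PD-1 restrains activated T cells. No group carried unaltered IL-34. The labels used here do not give the clone, the vector, the dose, the time, the site of the tumours, the age of the hosts or the number of animals behind a library. Each group had 1 library, so no value below has a replicate, a measure of error or a p-value.

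Muscle contracts when myosin of the thick filament pulls on actin of the thin filament. Calcium released from the sarcoplasmic reticulum binds troponin C, which moves the inhibitory troponin I and uncovers actin, and a calcium pump then clears the cytoplasm. Fast and slow fibres use different genes of the same families, such as fast and slow troponins and myosin heavy chains.

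Expression was measured as FPKM, fragments scaled to transcript length and library size, which allows levels of different genes to be compared. Where 4 values follow each other below, they stand for the untreated deficient, treated deficient, untreated overexpressing and treated overexpressing libraries. Summed FPKM lay between 488881 and 543926, and 11355 to 11634 gene rows had at least 1 FPKM. Relative to the untreated deficient library, the other libraries held 90% to 95% as many fragments, read from the steps between very low values. Il34 had 3.52 FPKM in the deficient tumour without and 3.02 FPKM with anti-PD-1, and 104 FPKM in both overexpressing tumours, the direction of the labels. In bulk tissue, fewer cells of a type and less RNA per cell cannot be told apart.

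Most of the 44 genes ran in the same order across the libraries. They were highest in the anti-PD-1 deficient tumour, intermediate in the 2 untreated tumours and lowest in the anti-PD-1 overexpressing tumour. The order treated deficient, untreated deficient, untreated overexpressing, treated overexpressing held for 35 of the 44 genes. Among genes with at least 1 FPKM in at least 1 library, 31 of 36 members and 7.04% of all 11802 ran in that order. Casq1, Sln, Cacng1 and Ampd1 differed from it only in that the untreated overexpressing library lay above the untreated deficient library. The exceptions beyond those were Tnnc1, Eno3 and Myh7, and Myl2 and Myl3, which were listed at 0 in all 4 libraries.

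The 44 genes together took 0.0440% of summed FPKM in the untreated deficient library, 0.131% in the treated deficient library, 0.0370% in the untreated overexpressing library and 0.0137% in the treated overexpressing library. Eno3 made up much of the last value. Without it the other 43 genes took 0.0358%, 0.123%, 0.0291% and 0.00542% in the same order. The muscle share was thus small in every library and differed most between the 2 treated tumours.

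**Figure D1:**
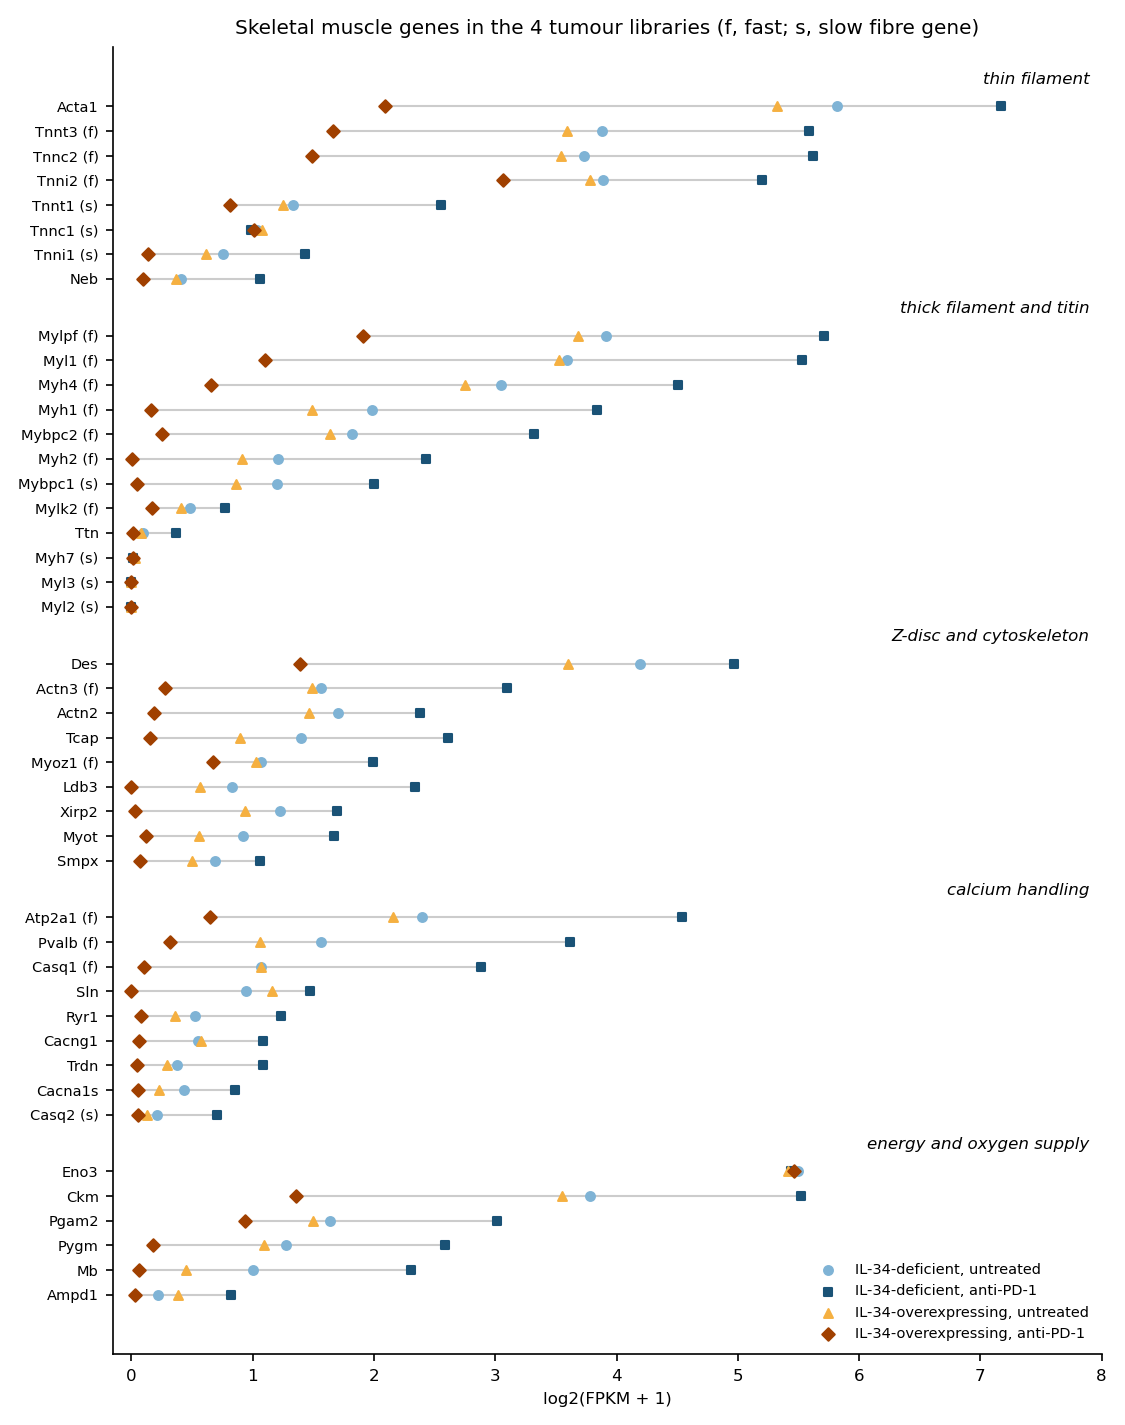
Each row is a muscle gene and each symbol a library, on a log2(FPKM + 1) scale, with genes sorted by mean level within their role; f marks fast and s slow fibre genes. The dark squares of the treated IL-34-deficient library lie to the right and the diamonds of the treated IL-34-overexpressing library to the left for most genes, while Eno3 (41.7 to 44.1 FPKM) and Tnnc1 (0.985 to 1.11 FPKM) do not spread.

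Among thin filament genes, Acta1 had the highest mean FPKM over the 4 libraries of the 44. Acta1, the actin of skeletal muscle (chromosome 8, 123891767 to 123894736 on mm10), had 55.3 FPKM in the deficient tumour without and 143 FPKM with anti-PD-1. In the overexpressing line it was at 39.0 FPKM without and 3.27 FPKM with the antibody. It was therefore 2.59-fold higher with anti-PD-1 in the deficient line and 11.9-fold lower in the overexpressing line. The coding sequences of actin genes are much alike, so some reads may have been shared with other actins.

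Tnnc2, the calcium sensor of fast fibres (chromosome 2, 164777162 to 164779734), had 12.3 FPKM in the deficient tumour without and 48.3 FPKM with the antibody, and 10.6 and 1.81 FPKM in the overexpressing tumours. Its slow and cardiac counterpart Tnnc1 (chromosome 14, 31208312 to 31211711) had 1.06, 0.985, 1.11 and 1.01 FPKM. The 2 troponin C genes thus went apart: the fast gene spread widely over the libraries and the slow gene lay near 1 FPKM in each. Tnnc2 was 92.1% of the summed FPKM of both genes in the untreated deficient library, 98.0% in the treated deficient library, 90.5% in the untreated overexpressing library and 64.1% in the treated overexpressing library.

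The promoters of Acta1, the gene with the highest mean, and of the diverging pair Tnnc2 and Tnnc1 are shown, as the 250 bases before and 50 bases from the RefSeq start on GRCm38.p6, which is mm10. Capitals mark matches, on either strand, to the E-box CAGCTG that myogenic factors can bind, the TATA box TATAAA, the MEF2 box and the CArG box, the last being the site of serum response factor; TATAAA can overlap a MEF2 box. Acta1 lies at chr8:123894726-123895025 on the minus strand, Tnnc2 at chr2:164779685-164779984 on the minus strand and Tnnc1 at chr14:31208062-31208361 on the plus strand.
Acta1: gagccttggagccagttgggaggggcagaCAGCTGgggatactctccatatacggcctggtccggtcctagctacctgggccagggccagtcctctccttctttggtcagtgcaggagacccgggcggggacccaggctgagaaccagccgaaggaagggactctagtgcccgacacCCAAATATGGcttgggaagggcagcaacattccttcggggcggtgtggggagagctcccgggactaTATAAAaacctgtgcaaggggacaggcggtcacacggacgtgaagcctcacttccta
Tnnc2: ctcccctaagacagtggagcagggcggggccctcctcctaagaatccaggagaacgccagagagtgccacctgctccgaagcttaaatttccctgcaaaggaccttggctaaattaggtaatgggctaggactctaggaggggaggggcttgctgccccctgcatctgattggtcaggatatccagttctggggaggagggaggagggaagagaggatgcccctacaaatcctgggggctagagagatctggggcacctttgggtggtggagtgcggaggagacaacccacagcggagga
Tnnc1: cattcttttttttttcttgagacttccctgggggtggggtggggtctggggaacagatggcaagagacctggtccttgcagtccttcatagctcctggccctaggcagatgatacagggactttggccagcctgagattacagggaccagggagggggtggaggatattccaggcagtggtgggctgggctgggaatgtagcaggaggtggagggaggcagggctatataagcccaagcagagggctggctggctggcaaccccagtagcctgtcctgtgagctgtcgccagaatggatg
The Acta1 window held 1 E-box CAGCTG, 1 CArG box and 1 TATA box TATAAA. The windows of both troponin C genes held 0 matches to these motifs, which says only that these letters are not there.

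The troponin I and troponin T genes also have a fast and a slow form. Tnni2, fast troponin I, had 13.8 FPKM in the deficient tumour without and 35.8 FPKM with anti-PD-1, against 12.7 and 7.35 FPKM in the overexpressing tumours. Its lowest value was higher, relative to its other values, than that of Tnnc2 or Tnnt3. Tnni1, slow troponin I, was at 0.689, 1.70, 0.532 and 0.102 FPKM in the same order of libraries. Tnni2 was 95.3%, 95.5%, 96.0% and 98.6% of the pair, so its share was highest in the treated overexpressing library, where that of Tnnc2 was lowest.

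Tnnt3, fast troponin T, which anchors the complex to tropomyosin, was at 13.7, 47.0, 11.0 and 2.16 FPKM in that order, and Gm14492, another gene model, overlaps it. Tnnt1, slow troponin T, was at 1.52, 4.87, 1.38 and 0.758 FPKM. Both troponin T genes were highest in the treated deficient library, and Tnnt3 was 90.0%, 90.6% and 88.9% of their sum in the first 3 libraries and 74.0% in the treated overexpressing one. Neb, nebulin, the giant protein along the thin filament, was below 1 FPKM except in the treated deficient library, where it was at 1.08 FPKM.

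**Figure D2:**
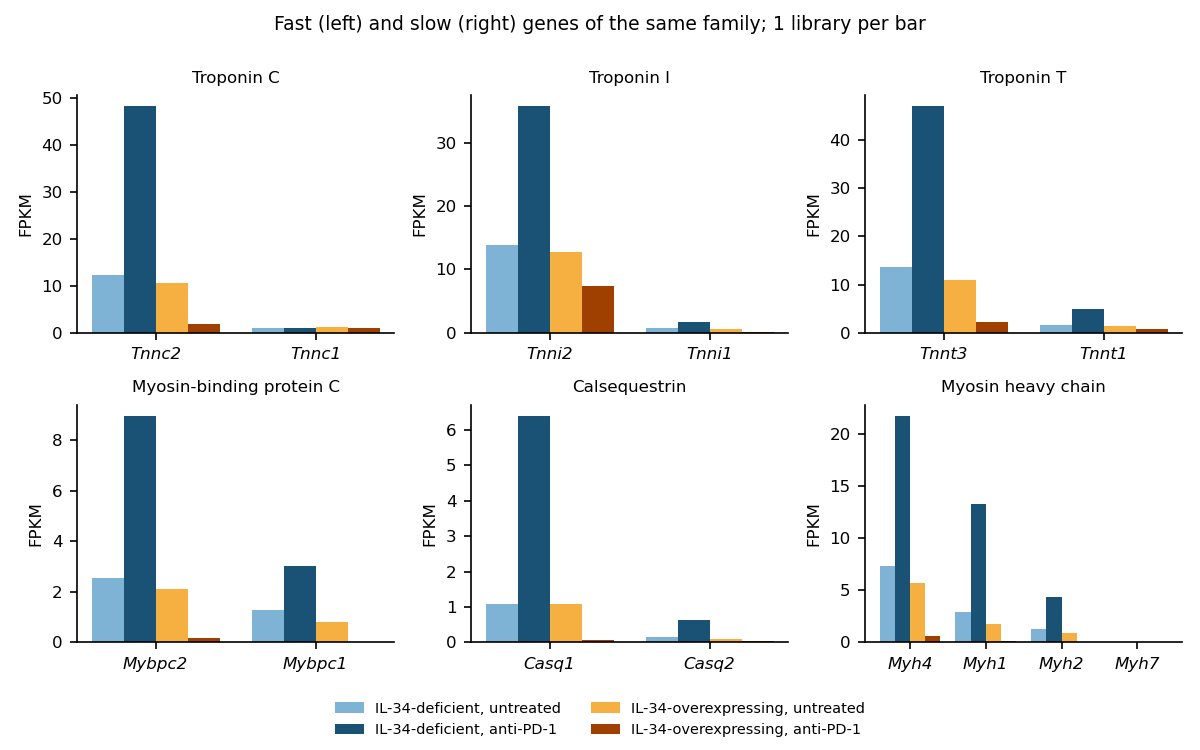
Bars give FPKM in each of the 4 libraries for fast and slow genes of 6 families, with an axis of its own for each family. The dark bar of the treated IL-34-deficient library is the highest for every gene drawn except Tnnc1 and Myh7, and Myh7 is too low to be seen at no more than 0.0211 FPKM.

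Thick filament genes of fast fibres had the same pattern. Of the slow ones Myl2, Myl3 and Myh7 were scarce in every library. Mybpc1 lay between 3.01 FPKM in the treated deficient and 0.0351 FPKM in the treated overexpressing library. Mylpf, the regulatory light chain of fast myosin, had 14.1 FPKM in the deficient tumour without and 51.4 FPKM with anti-PD-1, against 11.9 and 2.76 FPKM in the overexpressing tumours. Myl1, an essential light chain of fast myosin, was at 11.0, 45.1, 10.5 and 1.14 FPKM in the same order. Both were higher in the treated than in the untreated deficient library, with ratios of 3.66 and 4.09. Myl2 and Myl3, light chains of slow and cardiac myosin, were listed at 0 throughout, so Mylpf was 100% of the sum of Mylpf and Myl2 in each library.

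The myosin heavy chains Myh2, Myh1 and Myh4 lie next to each other on chromosome 11, between 67171027 and 67260446, and their sequences are similar, so reads may have been divided among them. Myh4, of the fastest (IIb) fibres, was at 7.29, 21.7, 5.71 and 0.574 FPKM in the untreated deficient, treated deficient, untreated overexpressing and treated overexpressing libraries. Myh1, of IIx fibres, was at 2.95, 13.3, 1.81 and 0.120 FPKM. Myh2, of IIa fibres, was at 1.31, 4.38, 0.881 and 0.00247 FPKM, the last being too little to give a ratio.

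Myh7, the slow and cardiac heavy chain, was at 0.00670, 0.00721, 0.0211 and 0.00744 FPKM, hardly above 0 in any library. Myh4 made up 63.0%, 55.1%, 67.8% and 81.6% of the summed FPKM of the 4 heavy chains, and Myh7 0.0580%, 0.0183%, 0.251% and 1.06%. The muscle myosin in these libraries was therefore almost wholly of the fast genes.

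The promoter of Myh4 is shown because it was the most abundant heavy chain and the window held all 4 motifs (chr11:67237562-67237861, plus strand). The RefSeq start of this window lies 217 bases from the start in the expression table.
Myh4: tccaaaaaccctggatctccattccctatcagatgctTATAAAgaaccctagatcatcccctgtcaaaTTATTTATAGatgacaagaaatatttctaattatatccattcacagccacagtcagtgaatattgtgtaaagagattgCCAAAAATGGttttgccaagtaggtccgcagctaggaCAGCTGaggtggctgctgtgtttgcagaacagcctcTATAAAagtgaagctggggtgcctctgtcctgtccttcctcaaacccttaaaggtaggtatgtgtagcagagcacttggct
It held 1 MEF2 box, 1 CArG box, 1 E-box CAGCTG and 3 matches to TATAAA, of which 1 overlaps the MEF2 box.

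Mybpc2, the fast myosin-binding protein C, was at 2.54, 8.96, 2.11 and 0.190 FPKM in the order given for the heavy chains. Mybpc1, its slow counterpart, was at 1.303, 3.01, 0.816 and 0.0351 FPKM. Here both forms ran in the same order, and the fast form was 66.1%, 74.9%, 72.1% and 84.5% of the pair. Mylk2, the kinase of the regulatory light chain, reached 0.705 FPKM and Ttn, titin, the elastic filament from Z-disc to M-line, 0.287 FPKM, both in the treated deficient library.

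Z-disc genes varied in how much higher they were in the treated deficient tumour, from 1.67-fold for Xirp2 to 5.22-fold for Ldb3. Des, desmin, the intermediate filament that ties Z-discs together and is also made by smooth muscle cells, had 17.3 FPKM in the deficient tumour without and 30.3 FPKM with anti-PD-1, against 11.2 and 1.62 FPKM in the overexpressing tumours. Actn2, the α-actinin of all fibres, was at 2.26, 4.204, 1.75 and 0.140 FPKM in the same order. Actn3, the α-actinin of fast fibres, was at 1.96, 7.55, 1.81 and 0.213 FPKM. The fast α-actinin was thus 3.86-fold higher with anti-PD-1 in the deficient line, against 1.86-fold for Actn2 and 1.75-fold for Des.

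Of the other Z-disc genes, Tcap, telethonin, which caps titin, was at 5.12 FPKM in the treated deficient and 0.115 FPKM in the treated overexpressing library. Myoz1, which tethers calcineurin, was at 2.98 and 0.591 FPKM in the same libraries, and Myot, myotilin, at 2.18 and 0.0864 FPKM. Ldb3, a PDZ-LIM protein that binds α-actinin, was at 0.778, 4.06 and 0.480 FPKM in the first 3 libraries and was listed at 0 in the treated overexpressing one. Xirp2, an actin-binding repeat protein, and Smpx, a small protein of muscle, were at 2.23 and 1.08 FPKM in the treated deficient library and below 0.1 FPKM in the treated overexpressing library.

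Calcium handling genes of fast fibres had the highest plain FPKM ratios of the 44 with anti-PD-1 in the deficient line. As log2 ratios of FPKM + 1, Casq1 at 1.82 lay below Myl1 at 1.94. Atp2a1, the calcium pump SERCA1 of fast fibres (chromosome 7, 126445860 to 126463073), had 4.25 FPKM in the deficient tumour without and 22.3 FPKM with the antibody, and 3.45 and 0.563 FPKM in the overexpressing tumours. It overlaps Rabep2 at the end of its model. Pvalb, parvalbumin, a calcium buffer of fast fibres, was at 1.96, 11.3, 1.09 and 0.243 FPKM in that order. Casq1, the calsequestrin that stores calcium in fast fibres, was at 1.09, 6.40, 1.10 and 0.0776 FPKM. Their ratios in the deficient line were 5.24, 5.76 and 5.85, above the median of 3.39 over the 28 members with a mean of at least 1 FPKM.

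Casq2, the calsequestrin of slow and cardiac fibres, was lower, at 0.155, 0.633, 0.0907 and 0.0384 FPKM in the same order. Ryr1, the calcium release channel, reached 1.35 FPKM in the treated deficient library, Trdn, triadin, which joins the channel to calsequestrin, 1.12 FPKM, and Cacna1s and Cacng1, subunits of the voltage sensor, 0.812 and 1.12 FPKM. Cacng1 was at 0.462, 1.12, 0.486 and 0.0429 FPKM, so its untreated values were close. All 4 of these genes were below 0.1 FPKM in the treated overexpressing library. Sln, sarcolipin, an inhibitor of the calcium pump, was at 0.928, 1.78, 1.23 and 0 FPKM, and its ratio in the deficient line was 1.92, the lowest of the calcium genes.

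All energy genes but Eno3 were highest in the treated deficient and lowest in the treated overexpressing library. Ckm, muscle creatine kinase, which regenerates ATP (chromosome 7, 19411094 to 19421583), had 12.8 FPKM in the deficient tumour without and 45.0 FPKM with the antibody, and 10.7 and 1.56 FPKM in the overexpressing tumours. Eno3, the muscle form of the glycolytic enzyme enolase (chromosome 11, 70657213 to 70662513), was at 44.1, 42.4, 41.7 and 43.1 FPKM. Its 4 values lay within a few percent of each other. A muscle gene by name, Eno3 was the second most abundant of the 44 on average and was the most abundant in both overexpressing libraries.

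Because it is the exception among the abundant members, the promoter of Eno3 is shown (chr11:70656926-70657225, plus strand), with the capitals as above.
Eno3: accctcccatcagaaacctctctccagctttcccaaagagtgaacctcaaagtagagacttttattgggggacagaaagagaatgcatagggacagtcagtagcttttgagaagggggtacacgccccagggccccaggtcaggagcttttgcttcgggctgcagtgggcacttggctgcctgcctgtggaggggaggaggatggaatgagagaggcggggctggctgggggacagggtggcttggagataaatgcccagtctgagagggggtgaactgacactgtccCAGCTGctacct
It held 1 E-box CAGCTG, inside the transcribed bases, and 0 matches to the other 3 motifs.

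The other energy genes were lower in level. Pgam2, the muscle phosphoglycerate mutase, was at 2.12, 7.07, 1.83 and 0.909 FPKM in the untreated deficient, treated deficient, untreated overexpressing and treated overexpressing libraries. Pygm, muscle glycogen phosphorylase, was at 1.42, 4.999, 1.13 and 0.131 FPKM and Mb, myoglobin, the oxygen store of oxidative fibres, at 0.999, 3.96, 0.368 and 0.0473 FPKM. The model of Mb overlaps Apol6, which was at 6.60, 21.7, 6.25 and 7.63 FPKM. Ampd1, AMP deaminase of muscle, was at 0.164, 0.766, 0.306 and 0.0202 FPKM. Each of these was highest in the treated deficient and lowest in the treated overexpressing library.

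Promoter windows within 250 bases of the table's start were found for 31 of the 44 genes. A MEF2 box was in 7 of the 31, or 22.6%, against 3.24% of 26993 other promoters. The CArG box was in 4, or 12.9%, against 1.56%, the E-box CAGCTG in 14, or 45.2%, against 16.1%, and TATAAA in 6, or 19.4%, against 14.2%. These are shares of letters found in windows and do not show that a factor was bound. By position, 8 of the 44 genes lie on chromosome 7 and 7 on chromosome 11.

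Fast and slow genes were then set apart. Fast genes took 0.0165%, 0.0669%, 0.0145% and 0.00346% of summed FPKM in the untreated deficient, treated deficient, untreated overexpressing and treated overexpressing libraries. Slow genes took 0.000869%, 0.00229%, 0.000754% and 0.000377%. Fast genes thus held far more than slow genes in each library, and both were highest in the treated deficient tumour.

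Each gene's level was also taken as a percentage of its level in the treated deficient library. For the 15 fast genes the median was 27.3% in the untreated deficient, 23.4% in the untreated overexpressing and 2.64% in the treated overexpressing library. For the 6 slow genes above 0 there it was 42.0%, 29.8% and 10.8%, and for the 21 shared genes 32.5%, 25.9% and 3.47%. The slow values include the flat Tnnc1 and the barely measured Myh7, so a median over so few genes is loose. The differences between fast and slow genes were not tested.

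**Figure D3:**
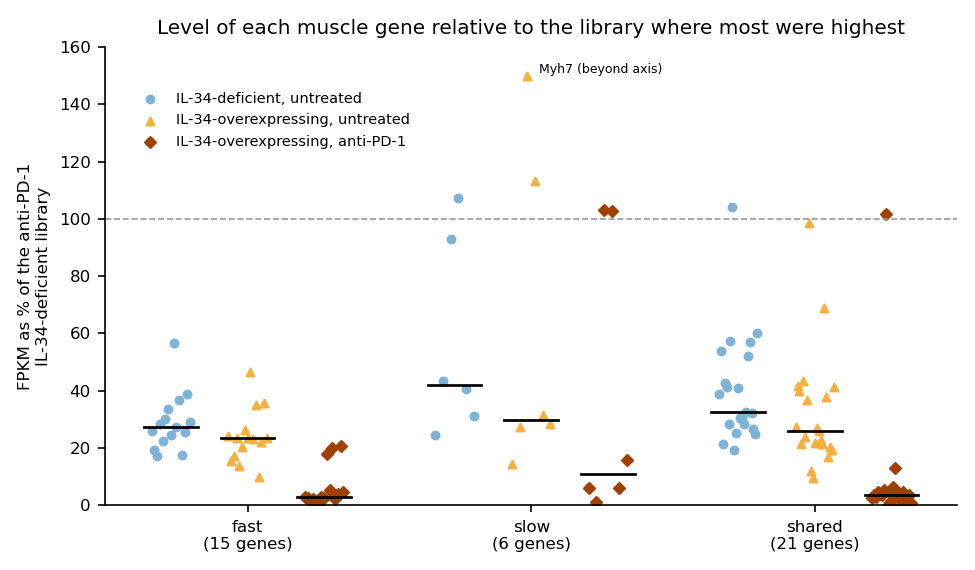
Each symbol is a gene's FPKM as a percentage of its FPKM in the treated IL-34-deficient library, shown for the other 3 libraries and for fast, slow and shared genes; black bars are medians and the dashed line is 100%. Fast genes lie at medians of 27.3%, 23.4% and 2.64%, and the points near 100% are Eno3, Tnnc1 and Myh7, of which the highest Myh7 value (293%) is drawn at the edge.

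The ranking of the 44 genes by level was alike between libraries. Spearman's rho over the 44 genes was 0.962 between the 2 deficient libraries, 0.970 between the 2 untreated libraries and 0.785 between the 2 treated libraries. These are correlations across genes, which share library and depth and are not independent.

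For the 4 comparisons, genes were counted where the log2 ratio of FPKM + 1 was at least 1 in size and at least 1 FPKM was reached in 1 of the libraries compared. This minimum was reached in all 4 libraries by 9 of the 44 genes and in the treated deficient library alone by 9, among them Ldb3, Ryr1, Neb, Mb and Tnni1. Genes of the second kind had to be higher there, so counts over them support nothing. The same holds in any comparison for a gene that reached the minimum in only 1 of the libraries compared. The minimum was reached by 26, 35, 23 and 10 of the 44 genes in the untreated deficient, treated deficient, untreated overexpressing and treated overexpressing libraries. Another 8, among them Ttn, Casq2, Mylk2 and Ampd1, did not reach it in any library.

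With anti-PD-1 in the deficient line, 36 of the 44 genes reached the minimum, 21 were higher by this size and 0 lower. Over all 11704 genes 1.49% were higher and 0.35% lower. The median log2 ratio of the 36 was 1.27, against −0.06 for all genes. Over all 44 without the minimum it was 0.86, and 40 of them lay above 0 and 2 below. Of all 22489 genes, 8232 lay above 0 and 8654 below. Of the 14 fast genes with the minimum, 13 were higher by size, of 4 slow genes 1 (Tnnt1), and of 18 shared genes 7.

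With anti-PD-1 in the overexpressing line the muscle genes were lower, though not by the same size in each. Of 23 with the minimum, 14 were lower by size and 0 higher, while 0.28% of all 11449 genes were lower and 0.0524% higher. The median log2 ratio was −1.27, against −0.00 for all genes. Over all 44 it was −0.64, with 41 below 0 and only Eno3 above. Of all 22489 genes, 8159 lay below 0 and 8272 above. Of 13 fast genes 9 were lower by size, and of 2 slow genes 0. All 23 genes reached the minimum in the untreated library, but only 10 of the 44 did so in the treated one. The others of the 23 passed only through the library where they were higher, so counts over them support nothing. The median without the minimum includes the weakly expressed genes and is nearer to 0.

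Without treatment the lines differed little. Of 27 genes with the minimum, 0 were higher and 0 lower by size in the overexpressing tumour, while 0.122% of 11455 genes were higher and 0.096% lower. The median log2 ratio was −0.23, against −0.03 for all genes, and 36 of the 44 genes lay below 0 and 6 above. Of all 22489 genes, 9361 lay below 0 and 7166 above. Mb had the lowest plain ratio among members with a mean of at least 1 FPKM, 0.369, and Tnnc1 the highest, 1.06.

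Under anti-PD-1 the lines differed most. Of 36 genes with the minimum, 32 were lower in the overexpressing tumour and 0 higher, while 2.37% of 11724 genes were lower and 0.392% higher. The median log2 ratio was −2.29, and that of the 14 fast genes was −3.49, or −1.78 with a pseudocount of 5 in place of 1. Acta1 had the lowest log2 ratio, −5.08. The minimum was reached by 35 of the 44 genes in the treated deficient but by only 10 in the treated overexpressing library. Most of the 36 thus passed only through the library where they were higher, and counts over them support nothing. Over all 44 without the minimum the median was −2.02, with 39 below 0 and 3 above. Of all 22489 genes, 8247 lay below 0 and 8627 above. This comparison shares its treated libraries with the 2 treatment comparisons, so it is no separate evidence.

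Subtracting the log2 ratio of the deficient line from that of the overexpressing line gave a median of −1.99 over 36 genes. It was at most −1 for 30 of them and at least 1 for 0, against 2.18% and 0.525% of 11802 genes. Among the 36, 9 reached the minimum in the treated deficient library alone. This pushes their difference downward, so counts over them support nothing. Over all 44 without the minimum the median was −1.69, with 41 below 0 and 1 above. Of all 22489 genes, 8287 lay below 0 and 9093 above. Higher by size in the deficient line and lower by size in the overexpressing line were 11 of the 44 genes, Acta1, Actn3, Ckm, Tnnc2, Tnnt3, Myh1, Myh4, Mylpf, Myl1, Mybpc2 and Atp2a1, out of 15 of all genes. Actn2, Des and Sln were lower by size in the overexpressing line without being higher by size in the deficient line. With 1 library per group this difference could not be tested.

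Other genes of muscle were taken from a list of 67, which includes genes also made by many other cells. In the deficient line 33 reached the minimum, 2 were higher by size with anti-PD-1 and 0 lower, with a median log2 ratio of 0.41. Without the minimum, 61 of the 67 lay above 0, against 8232 of all 22489 genes. In the overexpressing line 3 of 19 were lower by size, the median was −0.21, and 58 of the 67 lay below 0. Of all 22489 genes, 8159 lay below 0 there. The order seen for the 44 held for 35 of the 67, counted whether or not they reached the minimum. No share of all genes was taken in that way, as the 7.04% above covers only genes with the minimum. In the treated overexpressing library 11 of the 67 were listed at 0 and 15 reached 1 FPKM. The count thus rests in part on values near 0.

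The most abundant of the list were Aldoa, a glycolytic aldolase, at 932, 686, 780 and 824 FPKM, and Tpm3, a tropomyosin, at 341, 345, 333 and 328 FPKM. Aldoa was lowest in the treated deficient library, and Tpm3 ran in the order of the 44 with values close together. The 2 that were higher, named after their values were seen, were Cox8b, a subunit of cytochrome oxidase in muscle, at 3.11 against 0.645 FPKM, and Apobec2, a muscle protein, at 3.12 against 0.873 FPKM. The 3 that were lower, likewise, were Pdlim3 at 0.0627 against 1.303 FPKM, the small heat shock protein Hspb7 at 0.0914 against 1.49 FPKM and the chaperone Cryab at 2.93 against 6.97 FPKM. Myh3, the embryonic heavy chain, was between 0.0406 and 0.138 FPKM, and Myh8, the perinatal one, was at 0.0967, 0.498, 0.0709 and 0 FPKM.

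Most genes that make muscle were scarce. Myod1 and Myog, transcription factors that start and complete myogenesis, reached 0.178 and 0.687 FPKM in the treated deficient library and were listed at 0 in the treated overexpressing library. Pax7, the marker of satellite cells, was listed at 0 in all 4 libraries. Of 15 such genes 5 reached 1 FPKM in each library, led by Mef2a at 25.05 to 28.9 FPKM and Mef2d at 15.7 to 18.9 FPKM, which many cells make, and 0 were past the size in either treatment comparison. Of 10 genes of the neuromuscular junction, led by Chrnb1 at 31.0 to 33.96 FPKM and Rapsn at 0.852 to 1.24 FPKM, 0 were past it. Genes below 1 FPKM in both libraries compared could not be counted. Without the minimum, 7 of the 15 lay above 0 and 4 below in the deficient line. Of the 10, 7 lay above and 3 below. In the overexpressing line 4 of the 15 lay above 0 and 7 below, and 2 of the 10 above and 7 below.

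Markers of other tissues were examined beside the muscle genes. Of 13 cardiac genes 2 reached the minimum, and 1, Myl4, was higher by size in the deficient line and 0 were past it in the overexpressing line. Myh6, Myl7 and Nkx2-5 were listed at 0 in every library, Ryr2 was near 0, Tnni3, cardiac troponin I, was at 0.490, 0.665, 0.194 and 0.205 FPKM, and the sum over the list lay between 3.92 and 8.82 FPKM. Its most abundant genes were Nppb at 2.57 to 3.57 FPKM and Myl4, also a light chain of developing muscle, at 0.897, 4.08, 1.48 and 0.814 FPKM. Of 15 smooth muscle and pericyte genes 0 were past the size in either line, their sum was 59.7 to 64.4 FPKM, and Smtn and Pdgfrb led at 20.1 to 24.1 and 12.1 to 16.2 FPKM.

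Genes of the epidermis and hair follicle moved with the muscle genes in the deficient line. Of 17 such genes 13 reached the minimum and 12 were higher by size with anti-PD-1, against 1.49% of all genes. Their median log2 ratio was 2.50, against −0.06 for all genes. Only 2 of the 17 reached 1 FPKM in the untreated deficient library. Most passed only through the treated one, so counts over them support nothing. Without the minimum the median was 2.13, with 16 of the 17 above 0, against 8232 of all 22489 genes. Their sum was 99.5, 229, 94.3 and 117 FPKM in the 4 libraries, of which Lgals7, a galectin, made 92.4, 91.2, 91.9 and 114 FPKM. Krt10, a keratin of upper epidermis, was at 1.44, 31.2, 0.649 and 0.458 FPKM. In the overexpressing line 10 of the 17 were listed at 0 without and 6 with the antibody, and the median log2 ratio without the minimum was 0.01, while that of the muscle genes was −0.64. The part of epidermal tissue in the muscle values of the treated deficient tumour was not tested.

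Other neighbours of muscle were also counted. Of 13 adipocyte genes, 4 reached the minimum and 1 was higher in the treated deficient library, Car3, which slow muscle also makes, at 25.6 against 5.58 FPKM, while Fabp4 was at 41.2 against 63.1 FPKM. In the overexpressing line Car3 and Cfd were lower by size, at 0.715 against 4.82 and 0.118 against 2.35 FPKM. The defining genes Adipoq and Plin1 were no higher than 0.148 FPKM in any library, and both were lowest in the treated overexpressing one. Without the minimum, 9 of the 13 lay above 0 and 3 below in the deficient line. In the overexpressing line 1 lay above and 10 below. Of all 22489 genes, 8232 lay above 0 in the deficient line and 8159 below 0 in the overexpressing line. The part of fat in the muscle values was not tested.

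Of 9 tendon genes, led by Thbs4 at 2.49, 1.49, 3.20 and 0.622 FPKM and Fmod at 0.338, 1.09, 0.0926 and 0.114 FPKM, Tnmd was listed at 0 throughout and 1, Thbs4, was lower by size in the overexpressing line. Of 9 Schwann cell genes, led by Pmp22 at 13.0 to 15.4 FPKM and Prx at 2.50 to 2.93 FPKM, 0 were past the size in either line. Their part in the muscle values was not tested.

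**Figure D4:**
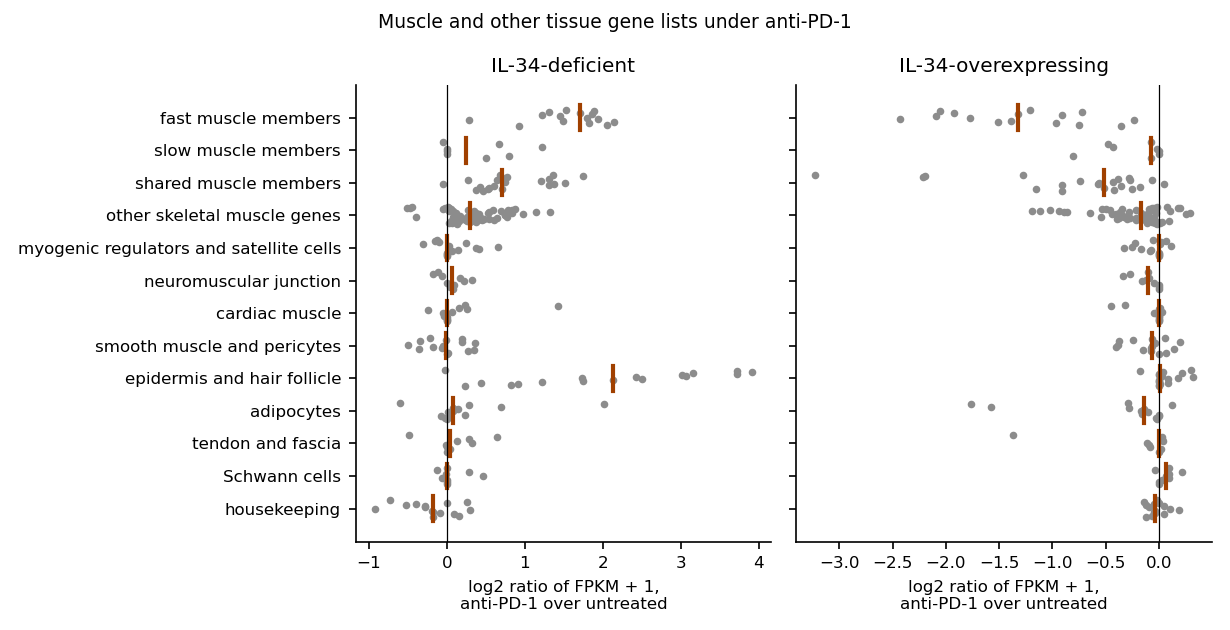
Grey points are genes and bars medians of the log2 ratio of FPKM + 1, treated over untreated, for the muscle genes by fibre type and for other tissue lists, with all genes of each list and no FPKM minimum; the 2 panels have different axes. Fast muscle genes lie to the right of 0 in the IL-34-deficient line (median 1.71) and to the left in the IL-34-overexpressing line (median −1.32), while epidermal genes lie to the right in the first (median 2.13) and at 0.01 in the second.

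Genes in general use gave a measure of scale. Of 15 such genes 0 were past the size in either treatment comparison, with medians of −0.18 in the deficient and −0.04 in the overexpressing line. Their log2 ratios ran from −0.93 to 0.30 in the deficient line, and 1 gene was past the size in the difference of responses. The most abundant, Eef1a1, was at 9430, 5704, 8761 and 8677 FPKM and B2m, a subunit of MHC class I, at 4523, 5418, 4175 and 3794 FPKM. Rescaling each library to the same sum, as in TPM, moved the median log2 ratio of all genes in the deficient line from −0.06 to 0.09, and that of the muscle genes to 1.502.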

How the data were processed

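Total tumour RNA was isolated (PureLink RNA Mini Kit) and sequenced as 4 strand-specific libraries (SureSelect), per the labels' protocols. The authors deposited 1 table of FPKM values for 23745 gene rows. The submitters' processing notes name mm10, Cufflinks 2.2.1, TopHat2 2.1.0 and CASAVA 1.8.2, without saying in which order or with which settings and strand option. FPKM depends on the most abundant transcripts and on how Cufflinks divides reads among similar genes. Fragment counts, and so counting intervals, cannot be had from it.

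Leaving out 794 symbols of short RNAs left 22489 symbols, with the row of the highest mean where a symbol had several. The emptied line of the table (1) was not used. Log2 ratios used FPKM + 1, which understates differences of low genes, and folds are plain FPKM ratios. Counts needed a log2 ratio of at least 1 in size and at least 1 FPKM in 1 of the libraries compared. No test was run, as each group had 1 library. The 44 genes and the other lists were chosen with earlier results of these data known. Values in all 4 libraries were given for fast and slow pairs, the 3 most abundant genes of each role and genes outside the most frequent order, and for the 2 most abundant genes of each other list. Some listed genes were matched by an older symbol (Klhl40, Klhl41, Mlip, Mymk and Mymx) and Flg was not matched. Gene positions are the table's own (mm10, counted from base 1), and promoter windows are from RefSeq on GRCm38.p6. Other pseudocounts, minimums, scalings and a sum over rows were tried. A median, share or count was taken as moved when it differed by over 1.5 times. The counting code was tested on simulated data. Python 3.11.15, numpy 2.4.6, pandas 2.3.3, scipy 1.17.1 and matplotlib 3.10.9 were used.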

Additional observations from a re-analysis of the deposited data

Results flagged for a closer look

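The muscle genes were flagged because most were higher with anti-PD-1 in the deficient line and lower in the overexpressing line. The median difference of the log2 ratios, overexpressing minus deficient, was −1.99 over the 36 genes with the minimum, against 0.06 for all genes. Among the 36, 9 reached the minimum in the treated deficient library alone, and without the minimum the median was −1.69. Higher by size in the deficient and lower by size in the overexpressing line were 11 of the 44 genes, out of 15 of all genes. The 44 were chosen from these same libraries, so these values partly restate the choice. With 1 library per group the difference was not tested, and a group and its single library cannot be told apart.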

How the results depend on the processing

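No count or median of the muscle genes changed direction under the alternatives tried, while the median of all genes changed sign under TPM, as in the deficient line from −0.06 to 0.09. A pseudocount of 5 lowered the count of muscle genes higher with anti-PD-1 in the deficient line from 21 to 11 and its median from 1.27 to 0.62. It lowered the count lower in the overexpressing line from 14 to 7, the count for the difference of responses from 30 to 15, and the count lower in the treated overexpressing than the treated deficient tumour from 32 to 16. The medians of these 3 became −0.41, −0.81 and −0.93, and with a pseudocount of 0.1 they became −2.49, −3.86 and −4.34. The untreated difference between lines became −0.10 with a pseudocount of 5. Without the FPKM minimum the median in the overexpressing line was −0.64. Without the 100 most abundant rows the genes took 0.0718%, 0.198%, 0.0600% and 0.0221% of summed FPKM in the untreated deficient, treated deficient, untreated overexpressing and treated overexpressing libraries. Over all pairs of a main value and an alternative, 97 moved by no more than 1.5 times, 42 of them counts that stayed at 0, and 17 by more; the count lower in the overexpressing line was 21 under TPM. For medians and shares of fast or slow genes 24 pairs moved by more and 74 did not. The fast median in the overexpressing line, −1.39, was −2.49 with a pseudocount of 0.1 and −0.52 with 5. In both tallies the sum over rows could not move a value, as each muscle gene had 1 row, so those pairs support nothing. It was the only alternative tried for the shares of fast and slow pairs. The size of the log2 ratios thus depends on the pseudocount because many of the genes lay near or below 1 FPKM. No paired analysis was possible because each group had 1 library.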
